A study of Mus musculus with 30 samples.

Results

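Class 3 is a set of 314 genomic regions bound by Esrrb in mouse embryonic stem (ES) cells, out of 14559 Esrrb peaks listed by the authors. Class 3 is the smallest of their 3 Bookmarked classes and holds 15.9% of the 1980 Bookmarked peaks and 2.16% of all peaks. The members were chosen by the class number alone (class = 3). The authors' classes divide the peaks by their ChIP-seq heights, so every height below describes the class and no height was tested. No source used here gives the thresholds behind the classes, so none can be named.

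Esrrb is a nuclear receptor without a known natural ligand that binds as a monomer to an extended receptor element in DNA and takes part in keeping mouse ES cells in the naive state of pluripotency. Transcription largely pauses when chromosomes condense for mitosis, and many DNA-binding factors leave them. A factor that stays on some of its sites through division is said to bookmark them, and the sites it leaves are said to be lost.

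Esrrb ChIP-seq and RNA-seq had been made from 129/Ola ES cells in 30 libraries. EKOiE is an Esrrb knockout line whose Esrrb comes from a transgene induced by doxycycline (DOX), and E14Tg2a is a wild-type line. The ChIP-seq compared asynchronous cells, called interphase here, with mitotic cells shaken off the plate, each with DOX (4 libraries, of which replicate 2 was E14Tg2a and the others EKOiE) and in EKOiE after 48 h without DOX (2 libraries). The RNA-seq used EKOiE cells with a cyclin A2 reporter (EKOiE-Ccna-Gfp), sorted by phase (early G1, late G1, G2), either with DOX or after 24 h without it (3 libraries per group, 18 in all). The gap between the 2 assays means that a ChIP-seq library without DOX had lost it for longer than an RNA-seq library without DOX. Nothing in the labels says whether replicates were separate cultures, so p-values measure only the spread between these samples, which may be technical.

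ChIP-seq libraries held 10.7 to 67.5 M (mega) reads, and the RNA-seq libraries 11.1 to 31.8 M exonic and 6.1 to 20.8 M intronic counts. The Esrrb gene itself, whose transgene and locus cannot be told apart in the counts, ran from 203 to 341 exonic CPM (counts per M counts of a library) in the 9 DOX libraries and from 140 to 195 in the 9 withdrawn libraries, without overlap. Its mean change over the phases was -0.68 ± 0.08 log2 (SE; edgeR adjusted p = 3.75e-05, and 0.00202 once phases were summed and replicate numbers blocked). ES-cell markers were high in every RNA library: Pou5f1 stood between 1250 and 1630 CPM, Dppa5a between 1600 and 2240, Tdgf1 between 501 and 996, Zfp42 between 233 and 840, Nanog between 145 and 365 and Sox2 between 92.8 and 207. The markers of mesendoderm summed to between 4.1 and 9.6 CPM over 5 tested genes, those of trophoblast to between 53 and 167.3 CPM over 12, those of neural cells to between 172.6 and 252.4 CPM over 8, those of fibroblasts and feeders to between 356.3 and 1027.3 CPM over 10, and those of primitive endoderm to between 796.3 and 1903.2 CPM over 17.

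Some RNA-seq libraries stood apart from the phase in their label. The summed level of 24 G2/M genes ran from 7408 to 9666 CPM in the 6 G2 libraries and from 3309 to 5733 CPM in 8 of the 12 G1 libraries. In the other 4 it was near the G2 level: 7400 CPM in the library labelled early G1 DOX replicate 3, 7480 in early G1 withdrawn replicate 2, 7189 in late G1 DOX replicate 1 and 7942 in late G1 withdrawn replicate 3. There was thus 1 such library in each of the 4 G1 groups. Results by phase are given with and without these 4 libraries below, a step chosen after the data were seen, and their part in the results with all 18 libraries was not tested otherwise.

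No genome of the peaks' build (mm9) was at hand, so the peaks' own bases are not shown. Promoters from RefSeq (GRCm38.p6, 250 bases before to 50 after a start) stand in for the peaks that touch that window. There were 33 such class 3 peaks at 33 genes, and 24 of the genes, with 36 promoters, had an entry. Atp10d, Fam159a, Hist2h2ab, Mcph1, Phf5a, Rnf125, Smap2, Thra and Vps13c had none. The letters AAGGTCA, the core of the Esrrb-type element, were looked for on both strands, and the same for the longer TCAAGGTCA, which contains that core. The core was in 6 of 36 class 3 promoters (16.7%), which belong to 5 genes, against 4.72% of all 32851 promoters in the table, 11.1% of 81 promoters under class 2 peaks, 5.88% of 34 under class 1, 8.19% of 281 under class 4 and 8.75% of 240 under class 5. The longer form was in 0 of 36, against 0.423% of all. TTTGCAT, part of the octamer-type element that Pou5f1 reads, was in 0 of 36 (4.63% of all). GGGCGG, a GC box, was in 19 of 36 (52.8%). That compares with 35.7% of all and 55.8 to 73.5% under the other 4 classes. Several starts of a gene can share bases, and these shares were not tested.

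The 5 promoters with the core are shown because they are the only places where the files tie a class 3 peak to letters of the element, with the 250 bases before the start and the core in capitals. Klk1 encodes a tissue kallikrein, Atp5l a subunit of the mitochondrial ATP synthase, Nrbf2 a subunit of an autophagy lipid kinase complex, Vipas39 a protein of vesicle sorting and Naa50 an N-terminal acetyltransferase. Tfcp2l1, a transcription factor of the naive state, is added without the core because its expression depended on DOX (below).
Klk1 (chr7:44225110-44225359, plus strand): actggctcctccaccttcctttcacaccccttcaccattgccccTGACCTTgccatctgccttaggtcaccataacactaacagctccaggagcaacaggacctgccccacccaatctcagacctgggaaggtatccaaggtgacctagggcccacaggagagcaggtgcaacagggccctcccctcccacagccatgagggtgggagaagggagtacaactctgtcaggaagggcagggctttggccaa
Atp5l (chr9:44920743-44920992, minus strand): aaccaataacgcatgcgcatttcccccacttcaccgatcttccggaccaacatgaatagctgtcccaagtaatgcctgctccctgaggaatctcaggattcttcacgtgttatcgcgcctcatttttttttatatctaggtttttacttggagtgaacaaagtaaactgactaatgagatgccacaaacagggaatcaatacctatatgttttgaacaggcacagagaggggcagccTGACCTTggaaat
Nrbf2 (chr10:67285282-67285531, minus strand): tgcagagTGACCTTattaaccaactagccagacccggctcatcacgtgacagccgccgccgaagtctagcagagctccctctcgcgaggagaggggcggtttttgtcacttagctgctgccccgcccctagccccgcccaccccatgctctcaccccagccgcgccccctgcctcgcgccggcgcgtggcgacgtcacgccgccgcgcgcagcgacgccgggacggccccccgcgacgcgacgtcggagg
Vipas39 (chr12:87266287-87266536, minus strand): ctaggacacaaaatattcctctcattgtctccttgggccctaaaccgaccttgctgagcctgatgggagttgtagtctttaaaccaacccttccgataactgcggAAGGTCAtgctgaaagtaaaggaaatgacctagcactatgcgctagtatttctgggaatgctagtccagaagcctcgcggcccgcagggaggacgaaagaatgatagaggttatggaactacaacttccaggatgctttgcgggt
Naa50 (chr16:44139541-44139790, plus strand): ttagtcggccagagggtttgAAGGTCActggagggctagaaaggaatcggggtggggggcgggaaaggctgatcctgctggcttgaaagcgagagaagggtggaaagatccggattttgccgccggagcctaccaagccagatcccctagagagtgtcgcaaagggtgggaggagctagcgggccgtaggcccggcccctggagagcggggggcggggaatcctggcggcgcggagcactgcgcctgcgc
Tfcp2l1 (chr1:118627695-118627944, plus strand): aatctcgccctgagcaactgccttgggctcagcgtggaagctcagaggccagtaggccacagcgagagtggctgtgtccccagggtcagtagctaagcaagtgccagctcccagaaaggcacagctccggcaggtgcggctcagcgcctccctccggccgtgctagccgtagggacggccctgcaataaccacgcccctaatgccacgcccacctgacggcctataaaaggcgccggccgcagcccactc
In these windows the core began 206 bases before the start in Klk1, 13 in Atp5l, 243 in Nrbf2, 145 in Vipas39 and 230 in Naa50, whose second listed start lies further downstream. The peaks themselves reach beyond the windows: their mm9 centres lay 430 bp upstream of the start in Klk1, 276 in Atp5l, 396 in Nrbf2, 164 in Vipas39, 320 in Naa50 and 1470 in Tfcp2l1.

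In interphase the class 3 peaks were among the high peaks of the table, and in mitosis they kept a low but measurable height. Height is the log2 of reads per kb of peak and per 1 M library reads (RPKM). With DOX, the median over the 314 peaks was 1.58, 2.53, 1.99 and 2.88 in interphase replicates 1 to 4, and 0.39, 0.29, 0.10 and 0.46 in mitosis replicates 1 to 4. Without DOX it was -1.93 and -0.92 in interphase and -1.75 and -1.09 in mitosis. The 4 mitosis libraries with DOX thus lay below all 4 interphase libraries with DOX and above every library without it. The wild-type libraries were inside the range of the inducible line in both states.

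**Figure D1:**
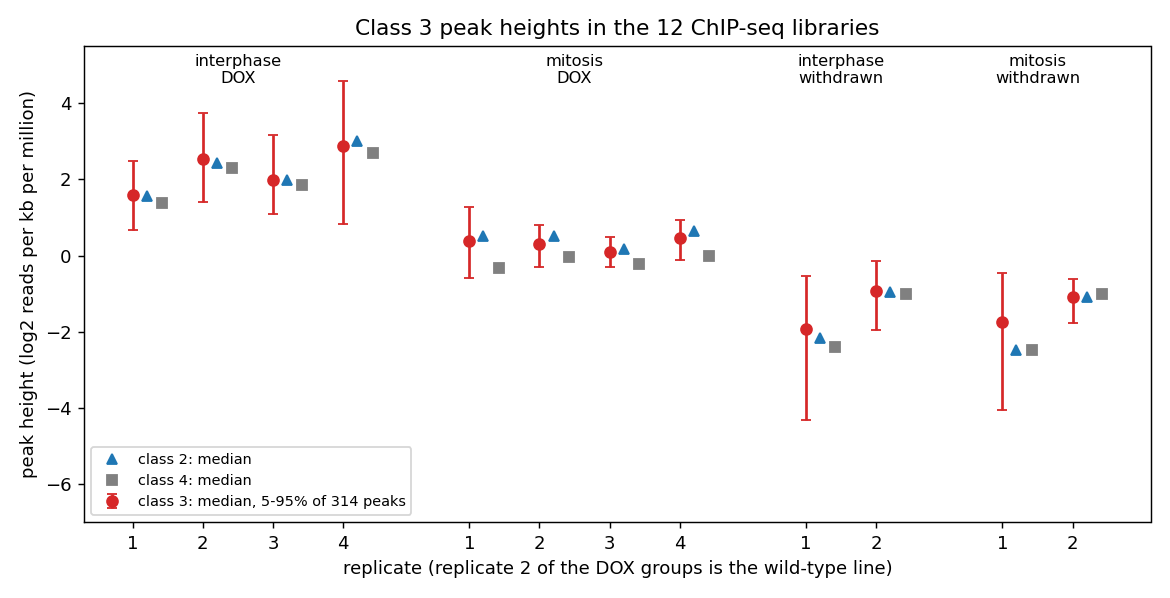
Median height of the 314 class 3 peaks (red circles, bars from the 5th to the 95th percentile of peaks) in each of the 12 ChIP-seq libraries, on the same log2 scale, with the medians of classes 2 and 4 beside them. Class 3 medians run from 1.58 to 2.88 in interphase with DOX, from 0.10 to 0.46 in mitosis with DOX and from -1.93 to -0.92 without DOX.

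Averaged over libraries, class 3 peaks had a median height of 2.23 in interphase with DOX (5th to 95th percentile 1.26 to 3.33) and 0.32 in mitosis with DOX (-0.24 to 0.65, highest 1.00). The median difference, mitosis minus interphase, was -1.96 log2, or 0.258 of the interphase height on the linear scale. By replicate number it was -1.17, -2.21, -1.92 and -2.49 (SD 0.57, n = 4). Over all 14559 peaks the median difference was -2.26. Scaling each library to the median of all peaks removed a shift of -2.12, and the class 3 difference turned to +0.16. The Lost classes 4 and 5 hold 45.5% and 40.9% of all peaks, so this scaling also takes out the fall that most peaks share. Class 3 peaks were therefore lower in mitosis before this scaling, and kept slightly more height than the median peak. Single peaks ranged from -3.66 to -0.25 and none was higher in mitosis.

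The mitosis heights of class 3 lay in a narrow band. The middle 50% of peaks spanned 0.17 to 0.45, against 1.76 to 2.71 in interphase. Across the 314 peaks interphase and mitosis means correlated weakly (Pearson 0.24, Spearman 0.22, across peaks that share libraries, as a description). The same Pearson correlation was 0.63 over all peaks, 0.34 over class 2, 0.01 over class 1 and 0.50 over class 4 and over class 5. The SD between the 4 libraries of one peak had a median of 0.34 in mitosis and 0.69 in interphase.

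**Figure D2:**
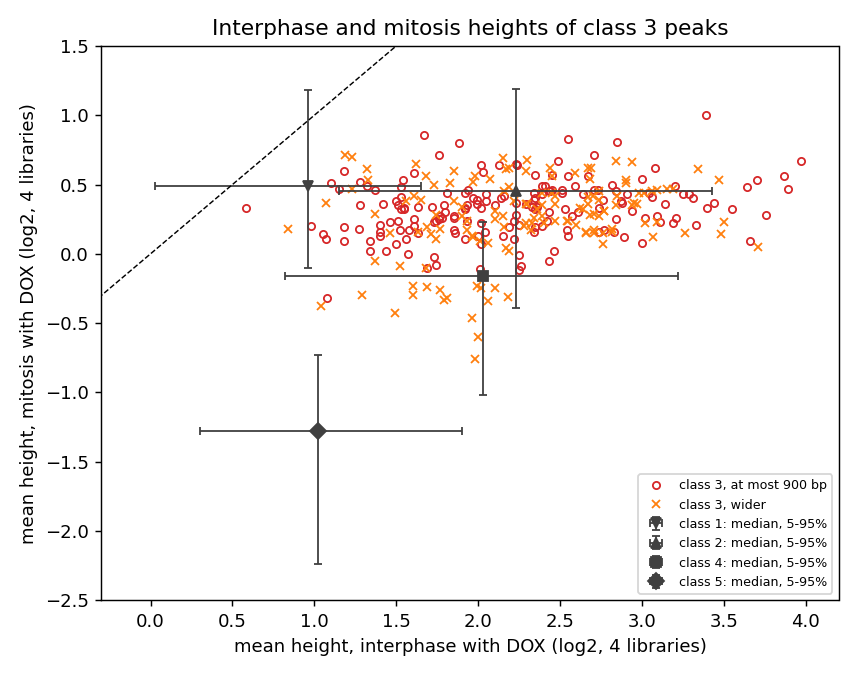
Mean height of each class 3 peak in interphase (x) and in mitosis (y) with DOX, both log2 and over 4 libraries, for peaks of at most 900 bp (circles) and wider ones (crosses), with the median and 5th to 95th percentile of the other classes in dark grey and the line of equal height dashed. All 314 points lie below the line, and their mitosis means run only from -0.76 to 1.00 while interphase means run from 0.58 to 3.97.

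Class 3 stood closest to class 2 in median height with DOX. Class 2 (1216 peaks) had the same interphase median, 2.23, with 0.45 in mitosis and a median difference of -1.79. Class 1 (450 peaks) was lower in interphase (0.96) and held 0.49 in mitosis. Class 4, the stronger of the Lost classes (6621 peaks), had 2.03 in interphase and -0.16 in mitosis, and class 5 had 1.02 and -1.28. The classes overlap: 52.6% of class 2 and 56.5% of class 4 peaks fell within the 5th to 95th percentile of class 3 on both axes, and 156 class 4 peaks (2.4%) exceeded the median mitosis height of class 3. The heights given here thus do not separate class 3 from its neighbours one peak at a time.

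All 4 mitosis libraries were below all 4 interphase libraries, with DOX, at 276 of 314 class 3 peaks (87.9%, against 88.0% of all peaks). Interphase with DOX was above both withdrawn libraries at 314 of 314 (99.4% of all peaks). In mitosis all 4 DOX libraries were above both withdrawn libraries at 308 of 314 (98.1%), against 47.4% of all peaks, 98.4% of class 2, 65.8% of class 4 and 10.0% of class 5. These counts rest on the heights behind the classes and are a description. The 6 exceptions, named after their values were seen, lie nearest to Tas2r134, Car2, A430005L14Rik, Mkln1, Csrp2 and Gpr108. At the peak near Mkln1 mitosis with DOX read 0.88, -0.12, 0.02 and 0.50, against -0.12 and -1.09 without.

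The reads behind a height differed between groups. A class 3 peak held a median of 87.5 to 224.5 reads in interphase libraries with DOX, 45 to 82.5 in mitosis libraries with DOX and 6 to 26 in withdrawn libraries. In replicate 1 of the withdrawn groups 13 class 3 peaks (interphase) and 31 (mitosis) held 0 reads, which the table sets to 0.9 read, so heights and differences there carry large counting error. Class 3 took 3.32 to 4.12% of all reads in peaks in interphase with DOX and 3.48 to 4.97% in mitosis with DOX, ranges that overlap. With DOX the median gain over withdrawal was 3.61 log2 in interphase and 1.64 in mitosis. The mitosis gain was 2.20 in class 2, 1.85 in class 1, 1.48 in class 4, 0.95 in class 5 and 1.33 over all peaks. By this gain class 3 lay nearer to class 4 than to class 2.

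The highest class 3 peak in mitosis lay inside Pak4, which encodes a p21-activated kinase, at chr7:29363401-29364000 (mm9). It read 2.60, 3.96, 3.19 and 3.79 in interphase with DOX and 0.97, 1.15, 0.80 and 1.08 in mitosis with DOX, against -2.99 and -1.14, and -1.89 and -1.0, without. The states did not overlap. The peak 278 bp upstream of Phf5a, which encodes a splicing factor subunit, was the highest in mitosis among those within 1 kb of a start (chr15:81702301-81702900). Its mitosis values were 1.46, 0.68, 0.39 and 0.70 with DOX and -3.48 and -1.39 without. A peak upstream of Ube2c, the ubiquitin-conjugating enzyme of the anaphase-promoting complex (chr2:164593651-164594400, 1402 bp before the start), had 1.07, 0.85, 0.30 and 1.11 in mitosis with DOX and -0.48 and -0.89 without. Others of the 10 highest lay nearest to Anxa1, Myh14, Fam131c, Slc20a1, Slc25a13, Cnksr3 and Vps13c, with mitosis means of 0.69 to 0.86. The Anxa1 peak lies 60690 bp from that start, beyond the 50 kb window used for genes.

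At the ends of the range, 5 peaks changed least between states and 5 most. The least changed were those nearest to Slc25a39 (-0.25), Slc20a1 (-0.48), Cnksr3 (-0.53), Pmvk (-0.58) and Fam131c (-0.60), at which the libraries of the states overlapped. At the Slc25a39 peak interphase read 0.13, 1.46, 1.73 and -1.0 and mitosis -0.07, 0.73, 0.42 and 0.24. The most changed were nearest to Golga7b (-3.66), Qk (-3.58), Hpcal1 (-3.47), Cspg5 (-3.42) and Tubb2b (-3.34), with interphase means of 3.48 to 3.89 and mitosis means of 0.05 to 0.47. The Hpcal1 peak lies 201132 bp from that start, beyond any window used for genes here.

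Peak width, which the class rule is not known to use, was 900 bp at the median and ran from 600 to 5100 bp. No class 3, 1 or 2 peak was under 600 bp, while 30.2% of class 4 peaks were. In class 3, 176 peaks (56.1%) were at most 900 bp, near the 57.8% of all peaks, whose median width is also 900 bp. The share was 18.2% in class 1, 16.6% in class 2, 77.5% in class 4 and 47.4% in class 5. At the other end 41 (13.1%) were at least 2000 bp, against 15.2% of class 2 and 4.2% of class 4. The widest, 5100 bp inside Tnrc18 (chr5:143559601-143564700), read 1.10, 2.16, 1.77 and 2.79 in interphase and -0.58, -0.30, -0.31 and -0.64 in mitosis with DOX, against -2.87 and -1.0 in mitosis without.

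Narrow and wide class 3 peaks had like heights with DOX but not without. Peaks of at most 900 bp had medians of 2.22 in interphase and 0.33 in mitosis, and the 138 wider ones 2.29 and 0.29. The gain of mitosis with DOX over withdrawal was 2.25 in the narrow and 1.32 in the wide peaks, and 4.04 and 3.29 in interphase. The gap between narrow and wide peaks thus rests on the withdrawn libraries, which held a median of 6 to 26 reads per class 3 peak. In replicate 1 of both withdrawn groups some peaks held 0 reads, so these gains carry large counting error. These differences were not tested.

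Class 3 peaks lay near transcription starts more often than peaks at large. With the peak centre as reference, 45 of 314 (14.3%, exact binomial 95% interval 10.6 to 18.7%) were within 1 kb of a start in the exonic table (mm9). This compares with 8.0% of all peaks, 8.4% of class 1 (6.0 to 11.4%), 9.5% of class 2 (7.9 to 11.2%), 8.8% of class 4 (8.1 to 9.5%) and 6.4% of class 5 (5.8 to 7.0%). The interval of class 3 overlaps those of classes 1 and 2 and lies above those of classes 4 and 5. Of the rest, 102 (32.5%) were inside an annotated gene (42.0% of all peaks), 121 (38.5%) were between genes within 50 kb of a start (32.5%) and 46 (14.6%) were further away (17.5%). The median distance to a start was 14.7 kb, against 21.0 kb over all peaks, 15.5 kb in class 2 and 27.3 kb in class 1. Peaks are not replicates of a condition, so the intervals cover counting error only and no test was run.

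Those near a start sat upstream of it. Among the 45, 38 centres (84.4%) were upstream and 7 downstream, against 61.4% upstream over all peaks, 77.4% in class 2, 71.1% in class 1 and 53.0% in class 5. In bins of 250 bp, 14 class 3 centres lay 250 to 500 bp upstream and 16 lay 500 to 750 bp upstream, but 1 lay within 250 bp upstream and 0 within 250 bp downstream. Few peaks of any class were centred at the start itself: over all peaks 78 lay within 250 bp upstream and 54 within 250 bp downstream, of 1162 within 1 kb. A class 3 peak overlapped the start in 14 cases (4.5%, against 2.2% of all peaks). The narrow peaks supplied most: 20.5% of them and 6.5% of the wide ones were within 1 kb of a start. The 45 near a start and the other 269 had similar mitosis heights, with medians of 0.33 and 0.32, and interphase medians of 2.02 and 2.29.

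**Figure D3:**
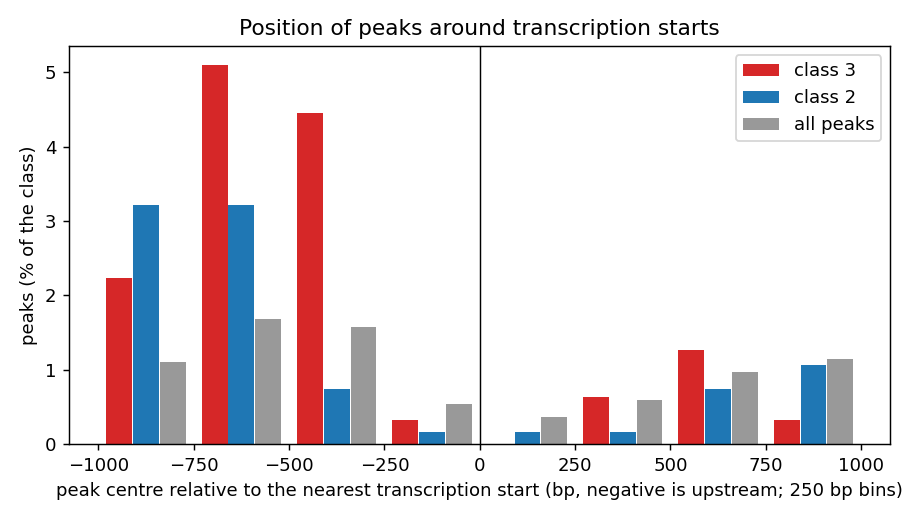
Share of peaks (y, % of the class) by the distance of the peak centre from the nearest transcription start (x, bp in bins of 250, negative upstream) for class 3, class 2 and all peaks. The class 3 bars are tallest from 500 to 750 bp upstream (5.10%) and from 250 to 500 bp upstream (4.46%), and fall to 0.32% and 0.0% on either side of the start.

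Among the 10 highest promoter peaks in mitosis were, after Phf5a, those of Vps13c (626 bp upstream), Rnf125, Mkrn1 (882), Wipi2 (736), D17Wsu92e (638), Sumo2 (756), Vipas39 (164), all upstream, and 4930452B06Rik, whose peak centre is 578 bp downstream. Rnf125 and Mkrn1 encode ubiquitin ligases, Sumo2 a ubiquitin-like modifier, Wipi2 an autophagy protein and Vps13c a lipid transfer protein. Their mitosis means with DOX were 0.45 to 0.81. The peak above Mkrn1 (chr6:39370651-39371850) read 2.47, 3.47, 2.98 and 4.44 in interphase and 0.82, 0.39, 0.33 and 0.90 in mitosis. None of these genes passed the test of exonic change after DOX withdrawal in all fits given below. The exonic change of 4930452B06Rik, -0.33 ± 0.10, had an edgeR adjusted p of 0.0243, of 0.107 with phases summed and the block, and of 0.146 without the 4 G1 libraries near the G2 level.

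Class 3 peaks were spread over the genome and seldom near each other. Chromosome 4 held 38 (12.1%, against 8.3% of all peaks), chromosome 8 held 25 (8.0% against 5.3%) and X held 3 (1.0% against 2.1%). Another Esrrb peak lay within 10 kb of 139 (44.3%), but another class 3 peak within 10 kb of only 2. The closest other peak was of class 4 for 139 peaks and of class 5 for 127, the Lost classes that make up most of the table, of class 2 for 34 and of class 1 for 11.

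Within 50 kb, 249 class 3 peaks (79.3%, against 71.7% of all) had a nearest start, and they named 246 genes. Fabp3, Fam131c and Rara had 2 class 3 peaks each. Of the 246 genes, 83 (33.7%) were nearest to class 3 peaks alone, and 163 (66.3%) also to a peak of another class, 111 of them to class 4 and 45 to class 1 or 2. In exons 228 (92.7%) passed the filter on low counts, against 69.4% of all genes in the table, 91.8% for class 2 and 88.1% for class 4, and all 45 with a peak within 1 kb did. Their median level was 5.39 log2 CPM (middle 50% 3.52 to 6.92), against 4.35 over all 14092 genes tested. The other 18 genes are not in the counts of changes below.

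Among the genes of fixed lists, those of the naive state next to class 3 peaks were Tfcp2l1, Zfp42, Zfp57 and Mybl2 (4 of 28). From the core pluripotency list came Pou5f1 and Sall1 (2 of 18). From the list of LIF and STAT3 signalling, the cytokine pathway that sustains ES cells, came the receptor subunits Lifr and Il6st, the kinase Pim1 and Tfcp2l1 (4 of 16). From the list of oxidative metabolism under estrogen-related receptors came Ldhb, Fabp3 and Nrf1 (3 of 35). Of all 20300 genes, 246 were nearest to a class 3 peak and 855 to a class 2 peak. Class 2 peaks were nearest to 12 naive, 6 core, 6 LIF and STAT3 and 7 oxidative genes of the same lists. Nearness to these lists is thus not particular to class 3. Gapdh, Ube2c, Etv4 and Sox1 stood for glycolysis, G2/M, formative or FGF-feedback, and neural genes. The lists of primitive endoderm, trophoblast, mesendoderm, fibroblast, 2-cell-like, Wnt and G1/S genes had 0 members nearest to a class 3 peak.

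DOX withdrawal was then used to ask which of these genes change once the Esrrb transgene is no longer induced. All RNA-seq libraries came from the inducible line. Effects of Esrrb loss, of DOX itself and of later steps within the 24 h cannot be told apart. Ldhb and Tfcp2l1 fell in every phase, Fabp3, Klk1 and Agpat2 in some, and Dhx9 rose in late G1 and G2. In early G1, 2 of 228 genes fell (Ldhb and Tfcp2l1) and 0 rose, against 0.121% and 0.0426% of all genes tested (edgeR). DESeq2 gave 7 falls and 1 rise, against 0.582% and 0.326% of all genes, and 34 of the 228 (14.91%) had an unadjusted edgeR p under 0.05, against 9.63% of all genes. In late G1, 4 fell (Ldhb, Tfcp2l1, Fabp3 and Klk1) and Dhx9 rose, against 0.277% and 0.185%. In G2, 5 fell (the same 4 and Agpat2) and Dhx9 rose, against 0.632% and 0.341%. Blocking by replicate number, the counts became 16 falls and 10 rises in early G1 (all genes 2.2% and 1.83%), 12 and 17 in late G1 (4.24% and 4.8%) and 17 and 19 in G2 (5.44% and 5.77%). The genes called without the block all passed with it.

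The class 3 genes as a whole did not shift: by phase, their median change was -0.013 (early G1), -0.019 (late G1) and 0.015 (G2), against 0.0, 0.001 and -0.013 over all genes tested. Calls moved when 1 library was left out, to 1 or 2 in early G1, 1 or 2 in late G1 without any 1 of its 6 libraries, and 1 to 7 in G2 (1 without withdrawn replicate 1, 2 without DOX replicate 1, and 3 without DOX replicate 2 or withdrawn replicate 3). Early G1 kept 1 call without DOX replicate 2 or any withdrawn replicate. Ldhb passed in all 18 of these fits.

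Without the 4 G1 libraries near the G2 level of G2/M genes, which leaves 2 libraries in each G1 group, only part of these calls remained (edgeR). In early G1 Ldhb fell (-1.13 ± 0.16, adjusted p = 0.0283; all genes 0.0282% fell and 0.0% rose), while Tfcp2l1 no longer passed (-0.85 ± 0.21, adjusted p = 0.342). In late G1 0 of 228 passed (all genes 0.00704% fell and 0.0% rose), with 24 (10.53%) at an unadjusted p under 0.05 against 8.03% of all genes, and 3 falls with the replicate block. The late G1 change of Ldhb was then -0.95 ± 0.16 (adjusted p = 0.0893). In G2, whose own libraries all stayed, Ldhb, Tfcp2l1, Fabp3 and Klk1 fell (0.275% of all genes fell and 0.127% rose), and Agpat2 and Dhx9 had an adjusted p of 0.0622 and 0.0613.

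Averaged over the phases, 29 class 3 genes fell (12.7%) and 22 rose (9.65%), against 8.47% and 8.43% of all genes tested (edgeR). Without the 4 libraries, 18 fell and 12 rose, against 4.23% and 4.72%, and all 30 were among the 51. Both fits treat the phases of one replicate number as independent, which they were not. With counts summed over phases, 3 against 3, Ldhb, Fabp3 and Klk1 fell and 0 rose (0.128% of all genes in either direction), and 41 of 228 (17.98%) had an unadjusted p under 0.05, against 14.39% of all genes. With the sums and the replicate block 18 fell and 21 rose, against 6.07% and 6.63% of all genes, and 35 of these 39 were also among the 51. The called share of class 3 genes in that fit (17.1%) was near that of genes next to class 1 (16.5%), class 2 (18.7%), class 4 (18.5%) and class 5 peaks (18.6%), and many genes belong to several of these sets. Genes next to class 3 peaks alone had 3 falls and 5 rises of 76 (10.5%).

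**Figure D4:**
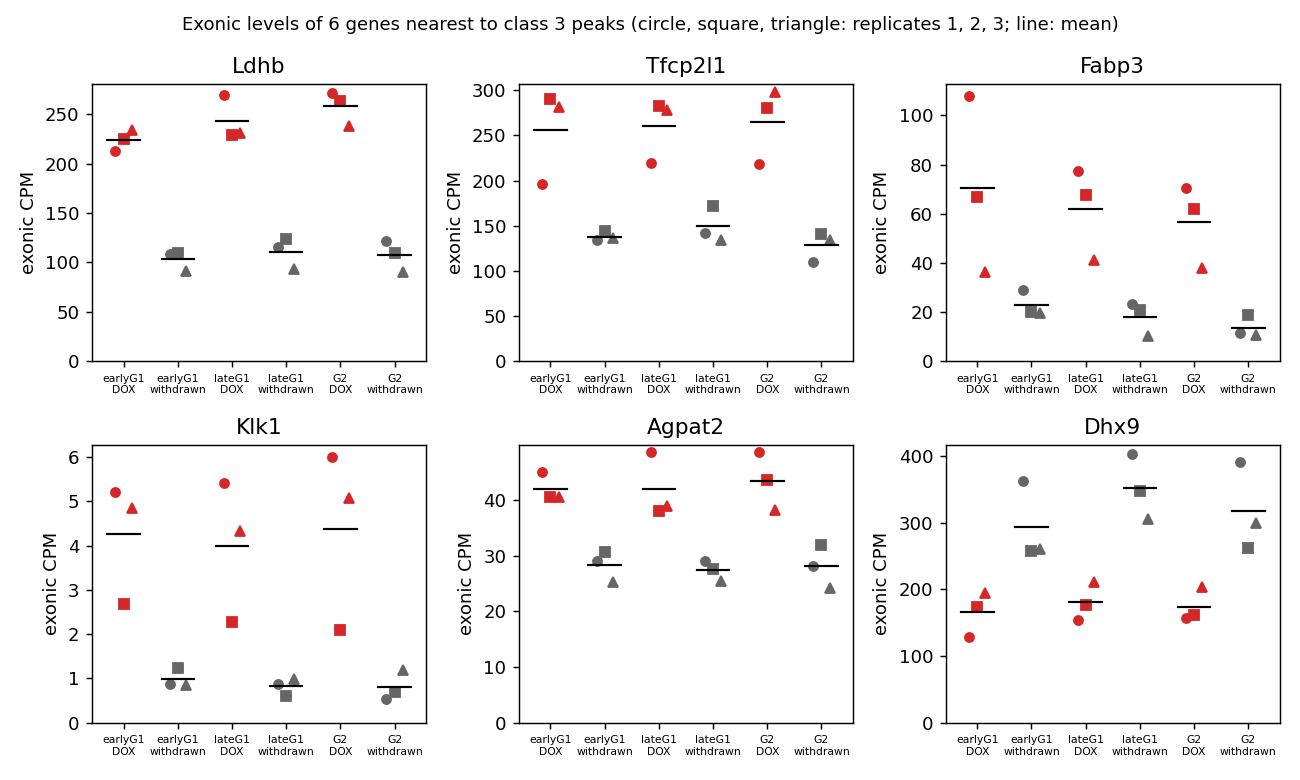
Exonic CPM (y, from 0) of 6 genes nearest to class 3 peaks in each of the 18 RNA-seq libraries, by phase and DOX state (x), with replicates 1, 2 and 3 as circles, squares and triangles and the mean as a line. The 9 DOX libraries (red) lie above the 9 withdrawn libraries (grey) for Ldhb, Tfcp2l1, Fabp3, Klk1 and Agpat2, and below them for Dhx9.

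Ldhb encodes the lactate dehydrogenase subunit that favours the use of lactate. Its class 3 peak, 2100 bp wide and centred 3038 bp upstream of the start (chr6:142458451-142460550; the gene NM_008492 at chr6:142438768-142456463, minus strand), is the only Esrrb peak for which Ldhb is the nearest start. The peak read 2.47, 3.30, 2.92 and 4.36 in interphase with DOX, 0.55, -0.24, -0.09 and 0.37 in mitosis with DOX, and -0.76 and -1.09 in mitosis without. Exonic Ldhb stood at 213, 225 and 234 CPM in early G1 with DOX and 109, 110 and 91.0 without. In late G1 it was 270, 229 and 231 with DOX and 116, 124 and 93.3 without. In G2 it was 272, 264 and 238 with DOX and 122, 110 and 90.3 without. No withdrawn library reached any DOX library. The changes were -1.12 ± 0.13, -1.13 ± 0.13 and -1.27 ± 0.13 log2 (SE; edgeR adjusted p = 0.000871, 0.000738 and 0.00015).

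Tfcp2l1 had its class 3 peak 1470 bp upstream (2700 bp wide, chr1:120521701-120524400), beside 1 class 1 and 3 class 4 peaks that share it as nearest gene. The peak was low in mitosis, at -0.26, -0.24, -0.30 and -0.21 with DOX, but above -2.65 and -1.01 without. Exonic Tfcp2l1 was 196, 290 and 282 CPM in early G1 with DOX and 134, 144 and 136 without. It was 220, 283 and 278 against 142, 172 and 134 in late G1, and 218, 280 and 298 against 110, 141 and 134 in G2. The groups did not overlap in any phase. The changes were -0.90, -0.80 and -1.05, each ± 0.16 (edgeR adjusted p = 0.0394, 0.0409 and 0.0047, and at most 0.000397 with the block). Leaving out 1 library ended the early G1 call in 5 of 6 fits and the late G1 call in 6 of 6 (highest adjusted p 0.224, without early G1 DOX replicate 2), and the G2 call without withdrawn replicate 1 (0.0637). With phases summed and no block it did not pass.

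Fabp3, a fatty-acid binding protein, had class 3 peaks 1196 bp upstream (chr4:129984451-129985200) and 13430 bp downstream, the second inside Zcchc17, and was also nearest to 2 class 4 and 3 class 5 peaks. The upstream peak read 0.67, 0.70, 0.33 and 0.14 in mitosis with DOX against -1.48 and -1.16 without. Exonic Fabp3 was 108, 66.7 and 36.4 CPM in early G1 with DOX and 28.8, 20 and 19.7 without, and 70.3, 62.0 and 38.1 against 11.6, 18.9 and 10.6 in G2. In DOX libraries replicate 1 was the highest and replicate 3 the lowest in each phase, yet no withdrawn library reached them. The changes were -1.62 ± 0.38 in early G1 (edgeR adjusted p = 0.12), -1.78 ± 0.38 in late G1 (0.0464) and -2.06 ± 0.39 in G2 (0.018), and with the block the adjusted p was 0.000731, 0.000178 and 2.87e-05. Leaving out any 1 library ended the late G1 call (up to 0.185), and 4 of 6 did so in G2 (up to 0.116).

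Klk1 is the nearest start of a class 3 peak alone, 430 bp upstream of it (chr7:51480001-51480750), the promoter shown first above. The peak read 2.57, 3.74, 3.11 and 4.78 in interphase with DOX, 0.57, 0.32, 0.10 and 0.29 in mitosis with DOX, and -1.80 and -1.50 in mitosis without. Klk1 was weakly expressed and has close paralogs, so its counts are uncertain. It stood at 5.22, 2.69 and 4.86 CPM in early G1 with DOX and 0.863, 1.23 and 0.841 without, and at 6.0, 2.09 and 5.07 against 0.541, 0.688 and 1.19 in G2. The changes were -2.13 ± 0.42 (edgeR adjusted p = 0.0555), -2.27 ± 0.44 (0.0304) and -2.48 ± 0.43 (0.0101) by phase in the order above. The late G1 call was lost without 5 of its 6 libraries (up to 0.136) and the G2 call without DOX replicate 1 or withdrawn replicate 1 (up to 0.0867).

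Agpat2, an acyltransferase of phospholipid and triglyceride synthesis, has a class 3 peak inside the gene, 9836 bp downstream of its start. It went from 48.6, 43.7 and 38.3 CPM to 28.2, 31.9 and 24.2 in G2, a change of -0.63 ± 0.14 (edgeR adjusted p = 0.0323). Leaving out DOX replicate 1 or 2 or withdrawn replicate 1 or 3 ended that call (up to 0.155). Dhx9, an RNA helicase, lies 5510 bp from a 2100 bp class 3 peak upstream of it (chr1:155339251-155341350) with mitosis values of 0.57, 0.23, 0.00 and 0.00 with DOX and -0.70 and -0.77 without. Exonic Dhx9 was 154, 177 and 211 CPM in late G1 with DOX and 403, 347 and 306 without, and 157, 161 and 204 against 391, 262 and 300 in G2. In each phase replicate 1 was the highest withdrawn and the lowest DOX library, and its part in the rise was not tested. The changes in late G1 and G2 were 0.96 ± 0.19 and 0.87 ± 0.19 (edgeR adjusted p = 0.0373 and 0.0369). Leaving out any 1 late G1 library (up to 0.186) or 4 of the 6 G2 libraries (up to 0.21) ended these calls.

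The other genes named by size of the mean change over phases each passed both without the block and with phases summed and the block, with smaller changes. The falls were Crlf2, a cytokine receptor (-0.69 ± 0.15; edgeR adjusted p = 0.00441), Pmvk, phosphomevalonate kinase of sterol synthesis (-0.50 ± 0.07), the kinase Src (-0.48 ± 0.07), the innate immune receptor Tlr2 (-0.48 ± 0.13), Vash1 (-0.47 ± 0.10) and Rab11fip5 (-0.47 ± 0.09). Tlr2 no longer passed without late G1 DOX replicate 2 (adjusted p = 0.05) or without the 4 libraries (0.0564). The rises were Rreb1, a zinc finger factor of Ras signalling (0.80 ± 0.13; edgeR adjusted p = 0.000634), Cyp2s1 (0.74 ± 0.20), the actin regulator Wasf2 (0.68 ± 0.14), the mechanosensitive channel Piezo1 (0.60 ± 0.15), the collagen Col18a1 (0.54 ± 0.10), the RNA-binding protein Tardbp (0.54 ± 0.16), Trmt1l (0.53 ± 0.12), Usp28 (0.50 ± 0.09) and Arid2 (0.45 ± 0.11). Tardbp lost its call without any of 8 of the 18 libraries (up to 0.0682, without G2 withdrawn replicate 3) and without the 4 libraries (0.0966). For Wasf2, Piezo1 and Col18a1, as for Dhx9, replicate 1 was the highest withdrawn library in each phase. Piezo1 read 81.9, 94.2 and 68.7 CPM there. In withdrawn replicates 2 and 3 it read 42.8 to 49.2, and with DOX at most 41.9. Wasf2 read 70.9, 78.5 and 67.2, against 38.7 to 50.5 and at most 38.4. Leaving out 1 library keeps the other replicate 1 libraries, and their part in these rises was not tested. Rara, a retinoic acid receptor with 2 class 3 peaks, rose by 0.41 ± 0.08 (edgeR adjusted p = 0.00235, and 0.022 with phases summed and the block).

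Most genes of the fixed lists next to class 3 peaks, pluripotency genes and others, did not pass in every fit. Pou5f1 had a mean change of 0.09 ± 0.07 and ranged from 1290 to 1470 CPM with DOX and from 1250 to 1630 without. Zfp42 (-0.16 ± 0.25), Zfp57 (0.07 ± 0.16), Il6st (0.13 ± 0.13), Lifr (0.21 ± 0.08), Nrf1 (-0.10 ± 0.12), Gapdh (0.15 ± 0.07), Ube2c (-0.11 ± 0.35), Etv4 (-0.27 ± 0.10) and Sox1 (-0.03 ± 0.21) did not pass in the fit over 18 libraries without the block. With the block over 18 libraries, Lifr, Gapdh and Etv4 passed (edgeR adjusted p = 0.00428, 0.0156 and 0.0163), but not with phases summed and the block (0.112, 0.251 and 0.0808). Mybl2 (-0.33 ± 0.11), Pim1 (-0.26 ± 0.08) and Sall1 (0.30 ± 0.09) passed in the fit over 18 libraries (edgeR adjusted p = 0.0441, 0.0284 and 0.0231) but not with phases summed and the block (0.0547, 0.0766 and 0.0614). Leaving out 1 library ended those calls in 14 of 18 fits for Mybl2, 7 for Pim1 and 2 for Sall1, and leaving out the 4 libraries ended all 3 (0.0642, 0.0921 and 0.145). Counted over whole lists, with phases summed and the block, 6 of 28 naive genes fell and 2 rose. Of LIF and STAT3 genes, 5 of 16 fell and 0 rose. Among core genes 0 of 18 fell and 8 rose, and among oxidative genes 5 of 33 fell and 0 rose. Over all genes tested in that fit 6.07% fell and 6.63% rose. Most members of these lists are not nearest to a class 3 peak, so these counts do not describe class 3.

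Intronic counts, which come largely from unspliced RNA, were read for the same genes. Of 225 class 3 genes tested, 5 fell and 3 rose in the mean over phases, against 1.62% and 1.95% of all 14075 genes (edgeR), and 5 fell and 5 rose with phases summed and the block, against 1.51% and 2.06%. With phases summed and no block, 0 of all genes passed (0.0%), with 18 of the 225 (8.0%) at an unadjusted p under 0.05, against 6.83% of all genes. DESeq2 on the 18 libraries called 7 falls and 7 rises (3.11% each), against 2.61% and 3.08% of all genes. These intronic shares lie near those of the whole table. The falls were Fabp3 (-1.74 ± 0.19), Tlr2 (-1.24 ± 0.32), Ldhb (-0.78 ± 0.12), Tfcp2l1 (-0.72 ± 0.11) and Slc25a39 (-0.42 ± 0.10), and the rises Fam159a (0.72 ± 0.18), Uri1 (0.48 ± 0.09) and Rreb1 (0.32 ± 0.08). Slc25a39 did not pass with phases summed and the block (edgeR adjusted p = 0.0639). The intronic calls of Tlr2 and Rreb1 held in only 6 of 18 fits that left out 1 library each. The 8 calls shrank to 4 without early G1 DOX replicate 2, early G1 withdrawn replicate 3 or G2 DOX replicate 1 or 2, and to 5 without early G1 DOX replicate 1 or late G1 DOX replicate 2. Without the 4 G1 libraries near the G2 level, Fabp3, Ldhb and Tfcp2l1 fell in introns and 0 rose, of 227 tested (all genes 0.329% and 0.392%).

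Exonic and intronic changes differed in size for some genes, a difference that was not tested. Ldhb introns went from 18.2, 24.2 and 29.3 CPM to 15.6, 16.4 and 14 in early G1, against an exonic mean change of -1.17 ± 0.08. Dhx9 introns stood at 68, 89.5 and 105 CPM in late G1 with DOX and 72.9, 115 and 119 without, with a mean change of 0.08 ± 0.15 (edgeR adjusted p = 0.824). Agpat2 introns changed by -0.17 ± 0.12 (0.498). Of the 34 genes called in exons in both fits and tested in introns, 16 of 17 that fell in exons were below 0 in introns and 12 of 17 that rose were above 0. No source used here gives the strand setting of the counting, so overlapping genes cannot be told apart.

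**Figure D5:**
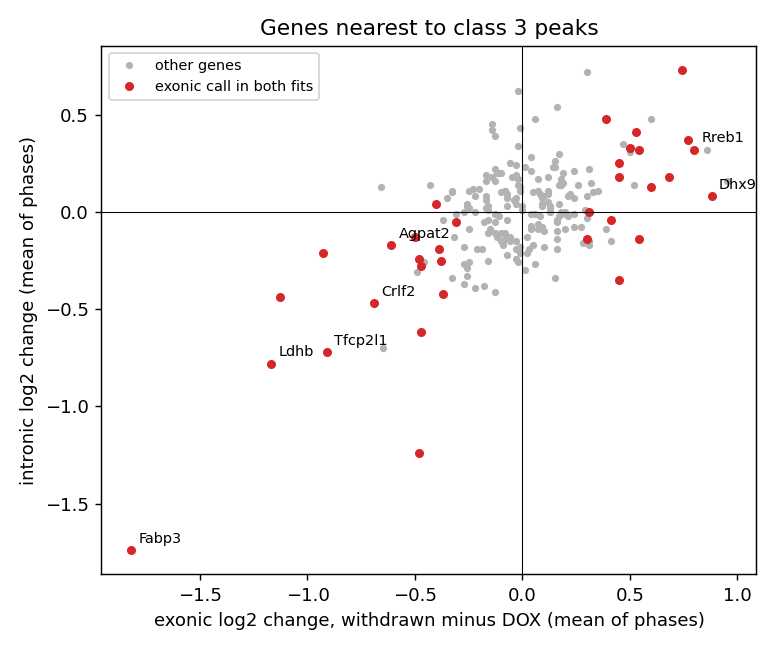
Exonic (x) against intronic (y) log2 change after DOX withdrawal, mean of the 3 phases, for the 218 genes nearest to class 3 peaks that were tested in both, with the 34 genes called in exons without the block and with phases summed and the block in red. Fabp3, Ldhb and Tfcp2l1 are low on both axes, while Dhx9 is at 0.88 in exons and 0.08 in introns.

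The response to withdrawal did not pass as different between phases for any class 3 gene or for any other gene tested. The 0 calls of this test are therefore not particular to class 3. The test of the difference gave 0 calls of 228 in each pair of phases (edgeR, with and without the block), with 0 at an unadjusted p under 0.05 without the block and 4, 4 and 1 with it. Without the 4 G1 libraries near the G2 level it again gave 0 calls in each pair, with 2, 0 and 0 at an unadjusted p under 0.05. With DOX present, G2 minus early G1 called 0 class 3 genes and 0 of all 14092 genes (0.0%) with edgeR, the block and DESeq2, and 3 class 3 genes had an unadjusted p below 0.05 in that edgeR fit, 15 with the block and 2 with DESeq2. Without the 4 libraries 1 class 3 gene was called, Ube2c, with 0.0211% of all genes called, and 14 class 3 genes had an unadjusted p below 0.05. The counts at an unadjusted p in this paragraph stand without the share over all genes, so they do not set class 3 genes apart. Ube2c is 1 of the 24 genes whose sum chose the libraries left out, so its call is a description. With DOX it stood at 26.3, 30.8 and 100 CPM in early G1, 104, 31.8 and 53.9 in late G1 and 113, 172 and 115 in G2. Without DOX it was 23.8, 99.5 and 24.9 in early G1, 26.4, 39.5 and 96 in late G1 and 184, 106 and 108 in G2. The 4 high G1 values of Ube2c, which is known to peak in G2 and mitosis, belong to the 4 libraries named above.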

How the data were processed

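The ChIP-seq and RNA-seq libraries were made by the authors with the Diagenode MicroPlex and Illumina TruSeq Stranded mRNA kits, per the labels' protocols. Bowtie, CASAVA 1.8, DESeq2 and the build mm9 appear in the submitters' processing notes without a stated role. The deposited peak table gives log2 heights per library and pooled group, written with decimal commas. Their unit was read from the values: whole multiples of 1 read (tolerance 0.05 read), with an empty peak at 0.9 read. Mitosis columns carry a heading (noco) that the labels do not use. Whole-number read counts per RefSeq accession, for exons and for introns, were deposited as 2 tables, per the file headers; 27 symbols turned into dates were restored through their accessions.

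Peaks were assigned to the nearest of 20300 exonic starts within 50 kb of the peak centre. The 18 RNA-seq libraries entered 1 edgeR fit of 6 group means (edgeR 4.0.16 in R 4.3.3), after filterByExpr and TMM scaling, with quasi-likelihood F tests and Benjamini-Hochberg adjustment over all genes at 0.05. Alternatives were a replicate block, RLE scaling, no filter, DESeq2 1.42.0, leaving out libraries, other assignment windows and, added after the data were seen, phases summed per replicate and leaving out the 4 G1 libraries whose summed G2/M genes reached 0.9 of the lowest G2 library. Same-numbered exonic libraries of compared groups deviated together (correlations 0.11 to 0.62, lowest in replicate 2). Over all same-numbered pairs of groups the lowest was 0 and the median 0.4, against a median of -0.21 between different numbers. The numbers were taken to pair the libraries, though replicate 2 gives weak support for it. In introns early G1 replicate 2 had 0.09. The edgeR fit without the block was also run on simulated counts, for the mean of phases only. Those counts had the same spread for every gene and no pairing by replicate number. The members and gene lists were chosen with earlier results of these data known.

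Named peaks were the 10 highest in mitosis, the 5 most and 5 least changed and the widest. Named genes were the 10 largest falls and rises among called genes at a log2 mean CPM of at least 2, list genes next to class 3, the 10 highest promoter peaks, genes with 2 class 3 peaks and, outside the rule, genes called in 1 phase. Atp5l, Nrbf2 and Naa50 (motif), the exceptions in mitosis and the intronic calls were named after their values were seen. Heights, widths, positions and motifs had no test. An item named by these rules is not reported here.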

Additional observations from a re-analysis of the deposited data

Results flagged for a closer look

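The class 3 peak 756 bp upstream of Sumo2 had 1 mitosis library with DOX far from the other 3: replicate 1 read -0.1, while replicates 2, 3 and 4 read 0.70, 0.65 and 0.71. Without DOX the peak read -4.22 and -0.92 in mitosis. Chance alone would give about 1 flag for every 20 such checks. This was the only flag in 72 checks of named peaks in groups of 4 libraries, fewer than that rate would give.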

How the results depend on the processing

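The median mitosis minus interphase difference of class 3, -1.96, became 0.16 when each library was scaled to the median of all peaks, which removes a shift of -2.12; it stayed between -2.19 and -1.73 when libraries were left out (the wild-type replicate 2 included), and was -1.65 from the authors' pooled columns and -1.95 in the 296 peaks at least 1 log2 above withdrawal in both states. The share near a start, 14.3%, was 23.6% within 2.5 kb, 19.4% by the peak edge and 4.5% for overlap alone. Early G1, late G1 and G2 calls (2, 5 and 6) became 26, 29 and 36 with the replicate block, which pairs libraries by number, 8, 13 and 14 with DESeq2, and 1, 0 and 3 with only the libraries compared. Taking every start within 50 kb gave 10 in G2. Leaving out 1 library gave 1 to 2, 1 to 2 and 1 to 7. The 51 calls of the mean of phases became 92 with the replicate block (18% of all genes fell and 18% rose), 3 with phases summed, 33 within 10 kb and 102 with every start; leaving out 1 library gave 39 to 53. The 8 intronic calls became 47 with the block, 0 with phases summed, 14 with DESeq2, 5 within 10 kb and 16 with every start (4 to 9 with 1 library left out). G2 against early G1 had 0 calls with the block and DESeq2, and 0 to 0 with 1 library left out. Leaving out the 4 G1 libraries near the G2 level of G2/M genes gave 1, 0 and 4 calls in early G1, late G1 and G2 (4, 3 and 30 with the replicate block), 30 in the mean of phases (66), 3 in introns (20) and 1 in G2 against early G1 (2); it leaves fewer libraries. Several counts of calls in this paragraph stand without the share over all genes in the same fit. They show how calls moved with the setting and do not set class 3 genes against other genes. Among 46 named genes and 1196 alternative values of the mean of phases, 1115 kept their call, 73 lost it and 8 gained it, and none of the 46 reversed a called direction. Withdrawn ChIP-seq libraries hold 6 to 26 reads per class 3 peak, which limits heights there. The cause was not tested for any of these shifts.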
